A study of Mus musculus with 12 samples.

Results

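The 6DT1 line that carries guide sg1 against Resf1 was compared with the 2 lines that carry guides sg2 and sg3, to ask which genes set 1 edited line apart from others edited in the same gene. The comparison used the 3 sg1 libraries against the unweighted mean of the sg2 and sg3 groups, with 3 libraries each and without the control line. It covered the 878 genes of the deposited table that the annotation places outside chromosome 15, of 982 genes in all. The remaining genes were 94 on chromosome 15 and 10 without a position.

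The 6DT1 cells are mouse mammary cancer cells, established from a tumor that was driven by a Myc transgene under the mouse mammary tumor virus promoter. The labels give the genotype of the sg1, sg2 and sg3 lines as Resf1 KO by CRISPR, and that of the control line, which received a scrambled guide (sgControl), as wild type. The treatment protocol attached to the same labels describes lentiviral shRNA knockdown and not these edited lines. The study's methods describe a vector that also carries Cas9 and GFP, sorting for GFP and growth from single cells. Each edited group is therefore 1 clone, its 3 libraries are dishes of that clone, and the guide and the clone cannot be told apart. Whether the control line was also grown from a single cell is not stated. All p-values below measure the spread between dishes of 1 line. Resf1 itself was not analysed here, so the labels were not checked on the targeted gene.

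Resf1 encodes retroelement silencing factor 1, a nuclear protein known for its link to the histone methyltransferase SETDB1 and the repression of endogenous retroviruses. Clones grown from single cells of a cancer line are known to differ in expression whatever was edited in them. The groups of genes described below include interferon-stimulated genes, which defend the cell against viruses and are switched on by STAT and IRF factors. They also include chaperones of the endoplasmic reticulum, which fold secreted proteins, and nucleolar factors, which assemble ribosomes and are classic targets of MYC.

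The table held normalized values per gene (estimated counts divided by a size factor), with sums of 2232030 to 2713951 in the 9 edited libraries. One feature without a symbol took 17.9% to 32.9% of each sum. These sums cover a selection of genes and are not the depth of the libraries, which is unknown. In a limma fit of the edited lines' mean against the control line, all 982 genes passed an unadjusted threshold of 0.05, so the shares below hold for genes of this table and not for the transcriptome. The median SD between dishes was 0.08 in sg1, 0.09 in sg2 and 0.11 in sg3 on the log2 scale. The luminal keratins Krt8, Krt18 and Krt19 were present, and no gene on the basal, fibroblast and endothelial marker lists was in the table. Of 7 neural markers Map2 and Nes were in the table, and their summed level was 3219 to 3397 in the sg1 libraries, 1725 to 1773 in sg2 and 797 to 936 in sg3. Most of the differences in this sum came from Nes, which is also on the mesenchymal list, while Map2 averaged 1037 in sg1 against 790.4 (sg2) and 862 (sg3). The part of other cells in the results was not tested.

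The sg1 line differed from the other lines in most of the genes. Against the mean of sg2 and sg3, 605 of 878 genes passed an adjusted limma p of 0.05 (68.9%, beside 70.8% of the whole table), and 618 had an unadjusted p under 0.05. Of the 605 genes, 352 were higher in sg1 (40.1% of all genes outside chromosome 15) and 253 were lower (28.8%). The median difference over the 878 genes was 0.04 on the log2(value + 1) scale, and the median size of the difference was 0.30. This scale understates the change of low genes.

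A stricter count asked whether sg1 differed from sg2 and from sg3 separately, in the same direction. This held for 445 genes (50.7%), of which 263 were higher in sg1 than in each of the other lines (30.0%) and 182 lower (20.7%). The other 160 genes past the threshold against the mean did not meet this count. The 3 sg1 libraries lay above all 6 others for 280 genes (31.9%) and below all 6 for 182 genes (20.7%). The median difference was 0.72 among the 263 genes that were higher and -0.35 among the 182 that were lower. Both differences reached a 2-fold change in 68 rises and 31 falls, a 4-fold change in 18 and 12, and a 10-fold change in 6 and 6.

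The balance of rises and falls depended on the scaling of the libraries. With the values as deposited, 58.2% of the genes past the threshold were higher in sg1. This share was 46.2% after median-of-ratios scaling over the table, 46.0% with TMM factors, 53.2% with table totals and 43.4% with totals that leave out the most abundant feature. The median difference shifted by -0.11, -0.11, -0.06 and -0.14 in the same order. The median value of the 878 genes was 629 to 644 in the sg1 libraries, above 546 to 563 in sg2 and 526 to 563 in sg3. Of the 445 genes that differed from each line, 344 did so under every scaling, 186 higher and 158 lower.

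**Figure D1:**
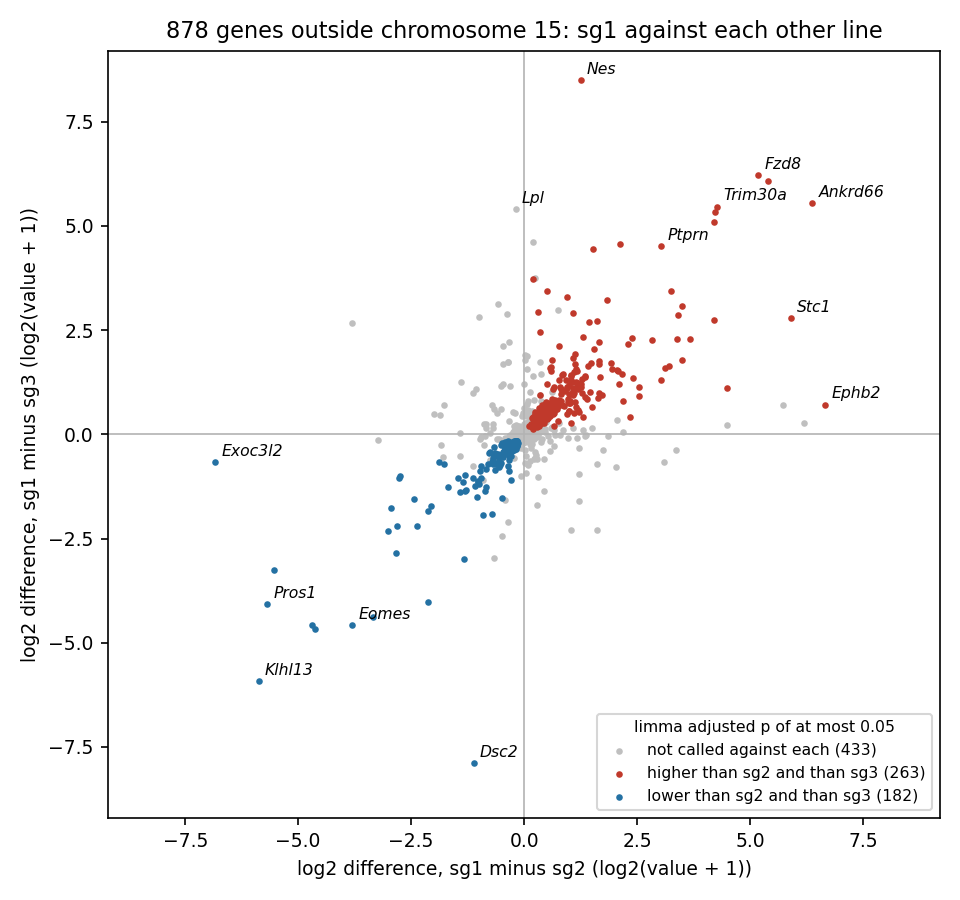
Each of the 878 points is a gene outside chromosome 15, with the log2 difference of sg1 from sg2 on the x axis and from sg3 on the y axis (log2(value + 1) scale), coloured by the limma call. The 445 genes that differed from each line in 1 direction lie in the upper right (263) and lower left (182), and genes along an axis differ from 1 line alone.

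The control line was not part of the test, but its position was read for the 425 genes that differed from each line and whose sg1 libraries lay apart from the other 6. Among those above, the control libraries fell within or overlapped the range spanned by sg2 and sg3 for 169 genes and lay past them, away from sg1, for 39. They lay between sg1 and the other lines for 25 genes, overlapped sg1 for 16 and lay beyond sg1 for 9. Among those below, the numbers in the same order were 105, 24, 8, 20 and 10. Where the control overlapped sg1 or lay beyond it, sg2 and sg3 were the lines that stood apart from both. Every gene of the table differed between the edited lines' mean and the control, so genes with a control near that mean are lacking. These numbers hold for that selection only.

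Among the largest rises was Ankrd66, which encodes an ankyrin repeat protein of little known function. Its values were 1015, 959 and 1011 in sg1, 8.36, 13.9 and 11.3 in sg2 and 16.3, 20.2 and 25.5 in sg3. The gene was close to silent in the other lines, and the control line, at 15.1 ± 2.89 (SD, n = 3), lay among them. The difference from the mean was 5.96 (SE 0.18, limma adjusted p = 6.15e-14), and the level was 88.8-fold that of sg2 and 48.1-fold that of sg3. Pla2g7, the gene next to it on chromosome 17 and the gene of a secreted phospholipase, was also higher in sg1 by 1.24 (SE 0.07).

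A homeobox gene and a Wnt receptor gene were also high in sg1, with the control between sg1 and the other lines. Hoxa7, a homeobox factor of axial patterning, had values of 366, 388 and 381 in sg1, 16.7, 23.6 and 18 in sg2 and 7.42, 6.44 and 12.4 in sg3. The control libraries were at 149 ± 21.4, so sg1 was above and the other edited lines below the control. The difference was 4.78 (SE 0.21, limma adjusted p = 4.01e-12). Fzd8, a Frizzled receptor of Wnt ligands, had values of 208, 237 and 194 in sg1, 7.31, 2.99 and 5.23 in sg2 and 1.16, 1.93 and 2.74 in sg3, with the control at 72.5 ± 8.72. The sg3 line was at the floor of 3 estimated reads per library, so sg1 was at least 70.2-fold higher than sg3, a bound that covers counting error only. Lhx6, a LIM homeobox factor, was higher by 0.73 (SE 0.12) and Sox9, a factor of progenitor cells, by 1.01 (SE 0.07).

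Trp53i11, a gene named for its induction by p53, had values of 876, 891 and 968 in sg1, 52.2, 40.8 and 53.2 in sg2 and 21, 28.9 and 28.3 in sg3. The groups were far apart, and the control, at 173 ± 27.6, lay between them. The difference was 4.65 (SE 0.13, limma adjusted p = 6.15e-14). Ptprn, a receptor-type phosphatase of secretory granules, had values of 2879, 3123 and 3028 in sg1, 344, 324 and 443 in sg2 and 101, 139.6 and 159.7 in sg3. The control line was also high for Ptprn, at 2084 ± 111, so most of this difference lay in the low level of sg2 and sg3. Stc1, the secreted glycoprotein stanniocalcin 1, had values of 267, 281 and 327 in sg1, 4.18, 3.98 and 3.49 in sg2 and 40.7, 40.4 and 42.9 in sg3. The control libraries overlapped sg1 for Stc1, at 209 ± 57.1.

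The predicted gene Gm43305 on chromosome 14 is a case where sg1 stood between the control and the other edited lines. Its values were 461, 455 and 363 in sg1, 3.17, 10.6 and 20.5 in sg2 and 11.7, 1.93 and 5.58 in sg3, and 1111, 923 and 1128 in the control. The difference of sg1 from the mean was 5.74 (SE 0.53, limma adjusted p = 2.73e-06). Osbpl7, an oxysterol-binding protein, also had a control level (157 ± 20.2) above that of sg1 (119, 118 and 118), with 15.7, 6.97 and 10.5 in sg2 and 23.3, 32.7 and 17.3 in sg3.

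The remaining large rises had other roles. Slit2, a secreted guidance cue that repels cells and axons, had values of 88.3, 91.2 and 89.5 in sg1, 7.31, 0.996 and 6.1 in sg2 and 16.3, 9.63 and 12.8 in sg3. Grap, an adaptor of the Ras pathway best known in lymphocytes, had values of 366, 383 and 306 in sg1, 24, 24.9 and 46.2 in sg2 and 30.3, 52.9 and 42 in sg3. Neither gene had overlapping groups, and the differences were 3.47 (SE 0.37) for Slit2 and 3.28 (SE 0.21) for Grap. Pcdh12, a protocadherin of cell contacts, was higher by 2.35 (SE 0.10), with near equal levels in sg2 (102) and sg3 (107). Sardh, a mitochondrial enzyme of glycine metabolism, was higher by 2.97 (SE 0.20). The membrane protein gene Eva1b was higher by 3.35 (SE 0.36), with the control libraries overlapping sg1. Grap overlaps Slc5a10 and several of these genes overlap an antisense transcript in the annotation, and whether the counting used strand is not given in the sources used here.

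**Figure D2:**
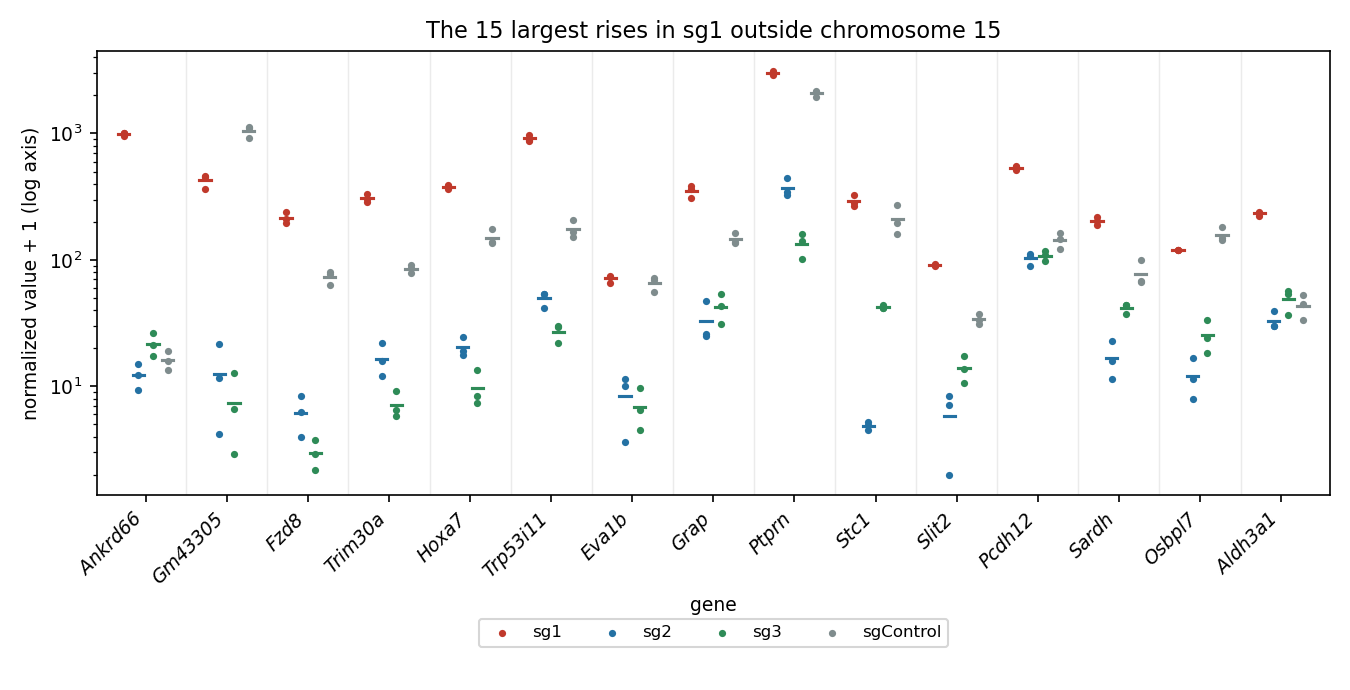
Normalized value + 1 (log axis) of each library for the 15 genes with the largest rises in sg1 outside chromosome 15. Points are libraries and bars are line means, with sg1 above every sg2 and sg3 library in all 15 genes and the control above sg1 for Gm43305 and Osbpl7.

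The largest fall was that of Klhl13, an X-linked gene for a substrate adaptor of a cullin ubiquitin ligase that acts in cell division. Its values were 4.25, 3.88 and 4.42 in sg1, 306, 266 and 342 in sg2 and 262, 341 and 349 in sg3. The gene was almost off in sg1 alone, and the control line had 121 ± 21.1. The difference was -5.90 (SE 0.14, limma adjusted p = 5.4e-15), and sg2 and sg3 were 72.9-fold and 75.8-fold higher than sg1.

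Other genes were close to absent from sg1 and present in each of the other lines. Ninl, which encodes a centrosomal protein, had values of 3.19, 0.97 and 2.21 in sg1, 80.4, 76.7 and 62.7 in sg2 and 86.1, 71.2 and 70.3 in sg3. The sg1 line was at the floor for Ninl, so sg2 was at least 23.4-fold and sg3 at least 24.2-fold higher. Sorbs2, an adaptor that links actin to adhesion sites, had values of 3.19, 3.88 and 4.42 in sg1, 121, 132 and 117 in sg2 and 125, 107 and 108 in sg3. Pros1, the gene of protein S, a plasma anticoagulant and ligand of TAM receptors, had values of 6.38, 5.82 and 5.52 in sg1, 378, 343 and 341 in sg2 and 94.3, 113 and 142 in sg3. The levels of Pros1 also differed between sg2 and sg3, so its difference from the mean (-4.88, SE 0.15) averages 2 unequal differences, -5.68 and -4.07.

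Eomes, a T-box factor of early development and of lymphocytes, had values of 10.6, 14.5 and 8.84 in sg1, 182, 166 and 159 in sg2 and 307, 295 and 260.0 in sg3. The control line lay between the lines at 56.1 ± 16.5, above sg1 and below the others. The difference was -4.19 (SE 0.15, limma adjusted p = 5.11e-13). Trim71, an RNA-binding ubiquitin ligase of stem cells and a target of let-7, had values of 275, 247 and 238 in sg1, 1338, 1418 and 1215 in sg2 and 1316, 1153 and 1064 in sg3. It was 5.22-fold higher in sg2 and 4.65-fold higher in sg3, and the control was near them at 999 ± 28.7.

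Further falls concerned transporters of membranes. Atp9a, a flippase-related transporter of endosomes, had values of 3.19, 4.85 and 12.2 in sg1, 82.5, 54.8 and 71.5 in sg2 and 149, 144 and 135 in sg3. Slc16a6, a monocarboxylate transporter, was lower by 2.84 on the log2 scale in sg1 (8.2, 16 and 17.8) than in sg2 (93.4, 106 and 103) and sg3 (94.1, 94.8 and 120.2). Its levels in the other 2 edited lines and in the control (103 ± 18.6) were nearly the same.

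The remaining falls were Rab3b, a GTPase of secretory vesicles (-2.66, SE 0.14), Mbp, which encodes myelin basic protein and shares its locus with the Golli transcripts (-3.08, SE 0.20), and Galnt3, an enzyme that starts O-linked glycans (-1.99, SE 0.11). The zinc finger genes Zfp518b (-2.50, SE 0.11) and Zfp704 (-1.97, SE 0.17) also belonged to them. Kcnab2, an auxiliary subunit of potassium channels, differed by -1.88 (SE 0.09), and here the control (141 ± 9.27) overlapped sg1 (109.5, 123 and 145). For Kcnab2 it was sg2 (531, 543 and 495) and sg3 (393, 438 and 404) that stood apart from the control.

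**Figure D3:**
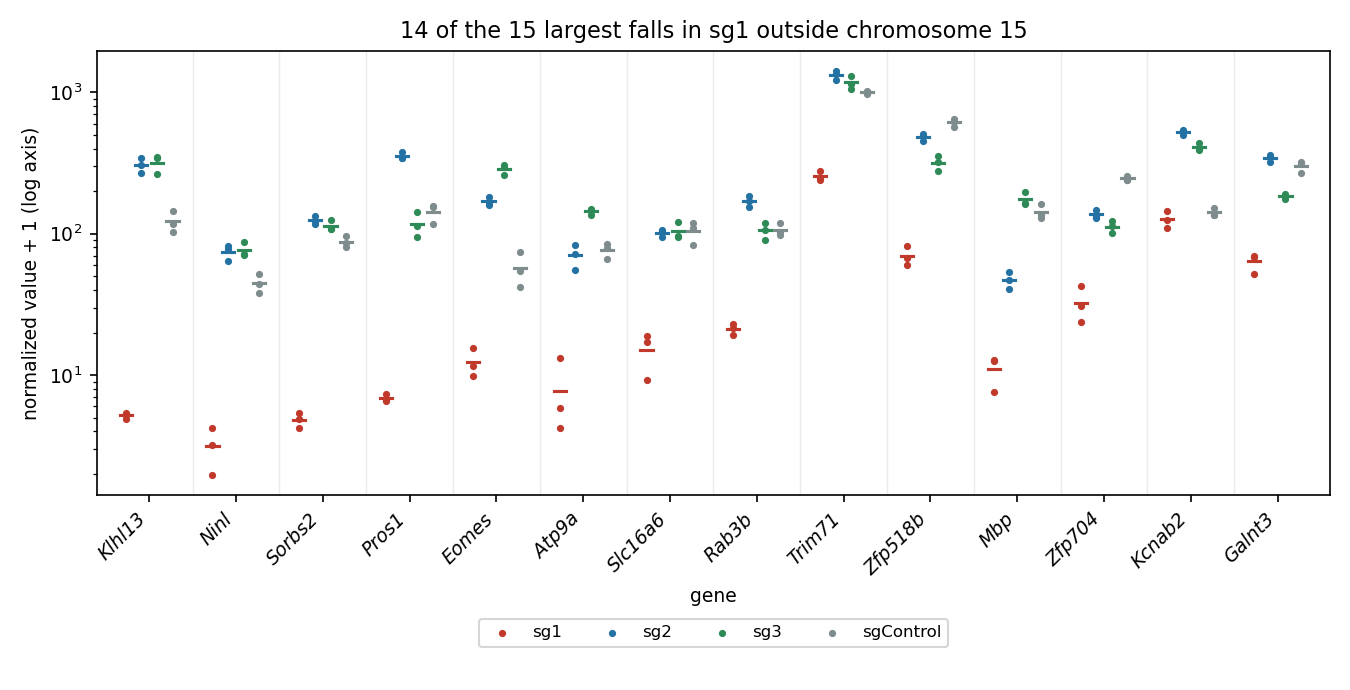
Normalized value + 1 (log axis) of each library for 14 of the 15 genes with the largest falls in sg1 outside chromosome 15. Points are libraries and bars are line means, with sg1 below every sg2 and sg3 library in all 14 genes and the control overlapping sg1 for Kcnab2.

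Lists of genes by function were read next, by the number of members past the threshold beside the 40.1% of genes that were higher and the 28.8% that were lower over all genes outside chromosome 15. No test of a list against other genes was run. The lists and their members were written with earlier results of these data known. Setting lines at the floor to 3 estimated reads left the median of each list the same to 2 decimals.

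Interferon-stimulated genes were higher in sg1. Of the 9 members in the table, 8 were higher against the mean, 7 against each line and 0 were lower, with a median difference of 1.73 beside 0.04 over all genes. The median was 1.59 to 1.73 under the scalings tried, with 7 or 8 members higher. The largest was Trim30a, a ubiquitin ligase that is induced by interferon and restrains Toll-like receptor signalling. Its values were 288, 301 and 334 in sg1, 20.9, 11 and 14.8 in sg2 and 8.15, 4.81 and 5.47 in sg3. The groups were far apart, with the control (84.4 ± 6.18) between them, and the difference was 4.86 (SE 0.23, limma adjusted p = 1.16e-11). Trim30a has close paralogs beside it, and its reads may be shared with them.

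Gbp4, a guanylate-binding GTPase that attacks the vacuoles of intracellular pathogens, had values of 336, 296 and 307 in sg1, 104, 83.6 and 109 in sg2 and 62.9, 62.6 and 75.7 in sg3, a difference of 1.93 (SE 0.12). Its neighbour Gbp9 was higher by 1.05 (SE 0.15). The pair are paralogs that overlap in the annotation, so reads may be split between them. Oasl1, a sensor-like protein related to the 2-5A synthetases, had values of 72.3, 70.8 and 90.6 in sg1, 36.6, 22.9 and 34.9 in sg2 and 12.8, 17.3 and 13.7 in sg3. Its 3 sg1 libraries were above all others. Ifit2, a protein that binds viral RNA, was higher by 1.73 (SE 0.18), and averaged 146 in sg1 against 24.9 (sg2) and 76.9 (sg3).

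Rsad2 encodes viperin, an antiviral enzyme that makes a chain-terminating nucleotide. Its values were low, 27.6, 18.4 and 32 in sg1, 17.8, 11.9 and 14.8 in sg2 and 2.33, 2.89 and 1.82 in sg3. The gene passed against the mean but not against sg2 alone. The sg3 line was at the floor, so sg1 was at least 8.57-fold higher than sg3. The RNA sensor Ddx58, also called RIG-I, was higher by 0.41 (SE 0.06) and the factor Irf5 by 0.28 (SE 0.07). Herc6, a ubiquitin ligase for the interferon-induced modifier ISG15, did not pass, with a difference of 0.01 (SE 0.09, limma adjusted p = 0.962).

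The promoters of these genes were searched for the core of the interferon response element, written as GAAANNGAA on either strand, in windows from 250 bases before to 50 bases after the start of the gene (RefSeq, GRCm38.p6). Of the 9 members, 7 had a window and 3 of them held a match (Ddx58, Rsad2 and Trim30a), as did 9.76% of all genes with a window. The matches upstream of the start in Trim30a and Rsad2 are shown because both genes were far apart between sg1 and sg3. Letters in capitals mark the match. The windows were read from their upstream end toward the start, so the letters follow the gene's strand, which is minus for both genes. The element itself reads on the opposite strand, so the capitals show its reverse complement.
Trim30a, chr7:104465200-104465248: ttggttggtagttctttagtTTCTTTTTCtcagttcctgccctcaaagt
Rsad2, chr12:26456543-26456591: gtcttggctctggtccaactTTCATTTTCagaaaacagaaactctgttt
A match is a description of these letters and not a bound site.

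All 6 cytokine and NF-kB genes in the table were higher in sg1 than in each other line, with a median difference of 0.57. All 6 passed against the mean under each scaling tried. Ccl2, the chemokine that draws monocytes, had values of 2137, 2100 and 2424 in sg1, 1526, 1549 and 1801 in sg2 and 1349, 1571 and 1629 in sg3. Cx3cl1, a chemokine made as a membrane protein, had values of 3003, 3000 and 3082 in sg1, 1864, 1891 and 1787 in sg2 and 1643, 2093 and 1846 in sg3. Both had sg1 above all other libraries, with differences of 0.50 (SE 0.07) and 0.71 (SE 0.06). Il34, a ligand of the CSF1 receptor, was higher by 0.63 (SE 0.07), Ptgs2, the inducible prostaglandin synthase, by 0.37 (SE 0.07) and the death receptor gene Tnfrsf21 by 0.34 (SE 0.09). Il2rg, the shared chain of interleukin receptors, differed by 1.97, but almost all of this lay in sg3 (80.3, 91.4 and 95.8), since sg2 (1005, 1034 and 1063) was close to sg1 (1115, 1232 and 1230). It did not pass against each line under every scaling.

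Of 12 leukocyte markers, Cd68 and Il2rg were in the table. Il2rg is itself one of the cytokine genes above and made up most of their summed level in sg1 and sg2. The sum was 1398 to 1558 in the sg1 libraries, 1174 to 1217 in sg2 and 219 to 255 in sg3. Cd68, a lysosomal glycoprotein of macrophages, was higher in sg1 by 0.98 (SE 0.09). The pan-leukocyte markers on the list were not in the table. The part of other cells in these results was not tested, and in bulk RNA fewer expressing cells and less RNA per cell cannot be told apart.

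Mesenchymal and matrix genes were mostly higher in sg1. Of 17 in the table, 13 were higher and 2 lower against the mean, and 12 were higher and 1 lower against each line, with a median difference of 0.40. Under the other scalings 11 or 12 were higher and 2 to 4 lower. Ecm1, a secreted matrix protein, had values of 9017, 9367 and 8355 in sg1, 2919, 2913 and 2621 in sg2 and 2534, 2683 and 2652 in sg3. The other edited lines were alike and close to the control (2841 ± 312), and sg1 was higher by 1.71 (SE 0.05, limma adjusted p = 6.15e-14). Adamtsl4, its neighbour on chromosome 3 and the gene of a fibrillin-binding protein, was higher by 1.09 (SE 0.08).

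Col12a1, a fibril-associated collagen, had values of 722, 728 and 621 in sg1, 155, 159 and 145 in sg2 and 276, 235 and 242 in sg3, a difference of 1.81 (SE 0.08). Col18a1, the collagen that gives rise to endostatin, was higher by 1.03 (SE 0.05) and Ltbp1, which holds latent TGF-beta in the matrix, by 0.91 (SE 0.05). Mmp11, a protease of tumor stroma, had lower values (46.8, 48.5 and 56.4 in sg1, 17.8, 7.97 and 9.59 in sg2, 14, 24.1 and 14.6 in sg3) and a wider error, 1.80 (SE 0.27). It overlaps Chchd10 on the opposite strand, a gene also in the table. Mmp13 was higher by 0.45 (SE 0.11) while the stromelysin gene Mmp3 was lower by 0.21 on the log2 scale (SE 0.06). The fibronectin gene Fn1 (-0.11, SE 0.07) and the EMT factor Zeb1 (-0.06, SE 0.06) did not pass.

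Nes, which encodes the intermediate filament protein nestin of progenitor cells, had the largest difference of the list, 4.87 (SE 0.09). Its values were 2344, 2454 and 2082 in sg1, 935, 981 and 959 in sg2 and 5.82, 5.78 and 4.56 in sg3. The difference from sg3 (8.49) was much larger than that from sg2 (1.25), so the mean is not typical of either line.

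Epithelial genes were few in the table and did not move together. Cgn, the gene of the tight junction protein cingulin, had values of 103, 110.2 and 90.1 in sg1, 25.1, 23.9 and 19.2 in sg2 and 4.66, 2.88 and 2.74 in sg3. Krt19, a keratin of simple epithelia, had values of 647, 678 and 543 in sg1, 419, 421 and 365 in sg2 and 168, 218 and 161 in sg3. Both were highest in sg1 and lowest in sg3, with the control overlapping sg1 for Krt19 (495 ± 65.7). Beside them, Krt8 and Krt18 on chromosome 15 had differences of 1.23 (SE 0.05) and 0.97 (SE 0.05). The Krt8 pseudogene Krt8-ps, which can share reads with Krt8, was higher by 1.22 (SE 0.06). Dsc2, a desmosomal cadherin, went the other way, with sg1 (2.13, 0.97 and 1.1) at the floor, sg2 near it (2.09, 6.97 and 4.36) and sg3 at 529.6, 533 and 604.

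Adhesion and guidance genes had 6 of 11 members higher and 1 lower against the mean, with a median of 0.26. Beside Slit2 and Pcdh12 these were Itga2, the collagen-binding integrin subunit (1.05, SE 0.09), Plxnd1, a semaphorin receptor (0.89, SE 0.05), Sema6d (0.54, SE 0.06) and Itgb1, the common beta-1 subunit. The values of Itgb1 are an example of a small difference that passed, though smaller ones passed as well. An average of 18649 in sg1 against 15581 (sg2) and 15534 (sg3) gave 0.26 (SE 0.05, limma adjusted p = 0.000106). Itgav, the alpha-V subunit, was the member that was lower (-0.12, SE 0.04). Unc50, an ion channel trafficking factor, matched the list by the letters of its name alone and did not pass.

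Among actin genes and regulators of small GTPases, 11 of 14 were higher and 1 was lower, with a median of 0.40. Under the other scalings 9 or 10 were higher and 1 to 3 lower. Arhgef10, a guanine nucleotide exchange factor, had values of 653, 688 and 666 in sg1, 307, 262 and 268 in sg2 and 298, 336 and 286 in sg3. The other edited lines were alike, and the difference was 1.19 (SE 0.08, limma adjusted p = 4.29e-10). Arhgap42, a GTPase-activating protein, was higher by 0.57 (SE 0.07) and the tropomyosin Tpm2 by 0.51 (SE 0.05). Arhgef6 (1.16, SE 0.33) and the muscle myosin Myh1 (1.09, SE 0.23) were low genes with wide errors. Arhgef25 was lower by 0.61 on the log2 scale (SE 0.11), but not against each line under every scaling. Dock1 and Dock5, exchange factors for Rac, differed by -0.01 (SE 0.05) each and did not pass.

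Genes of the amino acid and endoplasmic reticulum stress responses had 9 of 12 members higher and 0 lower, 7 of them against each line, with a median of 0.26. With totals that leave out the most abundant feature, 4 were higher and 1 was lower, so this count depends on the scaling. Hspa5, the chaperone BiP of the endoplasmic reticulum, had values of 15883, 15845 and 16104 in sg1, 11901, 12042 and 13204 in sg2 and 11721, 11960 and 13114 in sg3. The control (16149 ± 491) overlapped sg1, so for this chaperone sg2 and sg3 lay below both. The difference was 0.37 (SE 0.05, limma adjusted p = 5.47e-06).

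Other chaperones differed by less. Calr, the lectin chaperone calreticulin, had values of 18121, 19923 and 18279 in sg1, 14579, 15798 and 15057 in sg2 and 14442, 15876 and 15907 in sg3, with the control at 20247 ± 1087. The control again overlapped sg1, and Calr did not pass against each line under every scaling. Manf was higher by 0.28 (SE 0.07), and the disulfide isomerases Pdia6 and Pdia4 by 0.26 (SE 0.05) and 0.19 (SE 0.05). Their control means were above those of sg1: 3029 against 2815 for Manf, 4691 against 4363 for Pdia6 and 6979 against 6469 for Pdia4. For these genes too, sg2 and sg3 lay farther below the control than sg1 did. Sdf2l1 passed against the mean (0.27, SE 0.07) and not against each line, and Edem1 (0.01, SE 0.04) and Hyou1 (0.08, SE 0.05) did not pass. The members with the largest differences were not chaperones: Nupr1, a stress-induced chromatin protein (0.87, SE 0.08), and Vldlr, a lipoprotein receptor (0.54, SE 0.06). Xbp1, a transcription factor of the unfolded protein response, was higher by 0.18 (SE 0.07) against the mean and not against each line, and Vegfa, an angiogenic growth factor, did not pass (0.21, SE 0.10). The mean of the control was below that of sg1 for Nupr1 and Vldlr and above it for Xbp1, Vegfa, Sdf2l1, Edem1 and Hyou1.

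The promoters of the genes on this list were searched for the parts of the endoplasmic reticulum stress element, CCAAT and CCACG with 9 bases between them, on either strand. Of the 12 members, 10 had a window and 3 held a match (Calr, Hspa5 and Pdia6), as did 0.137% of all genes with a window. These 3 are shown because they held a match. Capitals mark the whole element, with letters on the gene's strand, which is plus for Hspa5 and Pdia6 and minus for Calr. In Calr the element reads on the opposite strand, so the capitals show its reverse complement.
Hspa5, chr2:34772005-34772063: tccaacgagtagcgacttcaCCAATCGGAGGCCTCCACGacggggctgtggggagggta
Pdia6, chr12:17266471-17266529: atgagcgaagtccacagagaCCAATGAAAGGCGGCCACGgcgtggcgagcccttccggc
Calr, chr8:84847055-84847113: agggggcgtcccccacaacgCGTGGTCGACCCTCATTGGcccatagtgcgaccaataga
The binding of a factor there was not measured.

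Factors of ribosome assembly were lower in sg1. Of 12 nucleolar and ribosome biogenesis genes, 10 were lower against the mean and against each line, and 0 were higher, with a median difference of -0.23. All 12 differences were negative under every scaling, with 10 to 12 past the threshold. Rrp1b, a nucleolar partner of protein phosphatase 1 and a known modifier of mammary metastasis in mice, had values of 1367, 1365 and 1284 in sg1, 1888, 1906 and 1751 in sg2 and 1941, 1949 and 1821 in sg3. The other edited lines were alike and the control (2021 ± 82.8) was near them. The difference was -0.49 (SE 0.05, limma adjusted p = 1.73e-07).

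The others changed less. Nolc1, a chaperone of small nucleolar particles, had values of 3648, 4144 and 3731 in sg1, 4731, 4558 and 4615 in sg2 and 4510, 5040 and 4895 in sg3, a difference of -0.30 (SE 0.05). Polr1b, a core subunit of RNA polymerase I, differed by -0.30 (SE 0.07), Sdad1 by -0.31 (SE 0.05), Wdr75 by -0.26 (SE 0.05) and Tcof1, the treacle protein of rDNA transcription, by -0.25 (SE 0.05). Nop2, an rRNA methyltransferase, differed by -0.18 (SE 0.06). Nob1 (-0.09, SE 0.06) and Ddx56 (-0.07, SE 0.06) did not pass.

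Myc on chromosome 15 moved with these genes, and its part in the result was not tested. Its values were 9470, 9364 and 9189 in sg1, 16655, 14363 and 14825 in sg2 and 15406, 18041 and 15030 in sg3, a difference of -0.75 (SE 0.06). The E-box CACGTG, the letters that MYC and its partner MAX bind, was in the window of 3 of the 11 nucleolar genes that had one (Mybbp1a, Nop2 and Sdad1) and of 8.09% of all genes. The match upstream of the start is shown for Nop2, which lies on the plus strand, with the E-box in capitals.
Nop2, chr6:125131803-125131848: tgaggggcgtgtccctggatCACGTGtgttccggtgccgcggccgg
These letters read the same on both strands.

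Enzymes of polyamine, folate and nucleotide synthesis had 6 of 7 members lower and 1 higher, against the mean and against each line. The counts against the mean were the same under every scaling. Shmt1, the cytosolic serine hydroxymethyltransferase, had values of 599, 629.5 and 568 in sg1, 808, 886 and 908 in sg2 and 961, 1059 and 976 in sg3, a difference of -0.64 (SE 0.06). Impdh1, the enzyme that commits nucleotides to guanine, had values of 809, 845 and 829.8 in sg1, 1410, 1471 and 1353 in sg2 and 1014, 1247 and 1142 in sg3. Both had sg1 below all other libraries. Srm, spermidine synthase, differed by -0.31 (SE 0.06), and Shmt2, Pfas and Cad by -0.21, -0.21 and -0.20 (SE 0.06 each). Adssl1, an adenylosuccinate synthase typical of muscle, was higher by 0.65 (SE 0.09).

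Cytosolic ribosomal proteins themselves hardly differed between the lines. Of 11 genes, 1 was higher and 2 were lower against the mean, and 1 was lower against each line, with a median of -0.02. The sign of this median was the same under each scaling, but up to 7 members were lower when totals left out the most abundant feature. The largest difference was that of Rpl7a, at -0.18 (SE 0.05), which did not hold against each line under every scaling. Mitochondrial respiration genes had 3 of 9 lower and 0 higher with a median of -0.11, and 3 to 9 lower under the other scalings. Cox5a differed by -0.19 (SE 0.05).

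**Figure D4:**
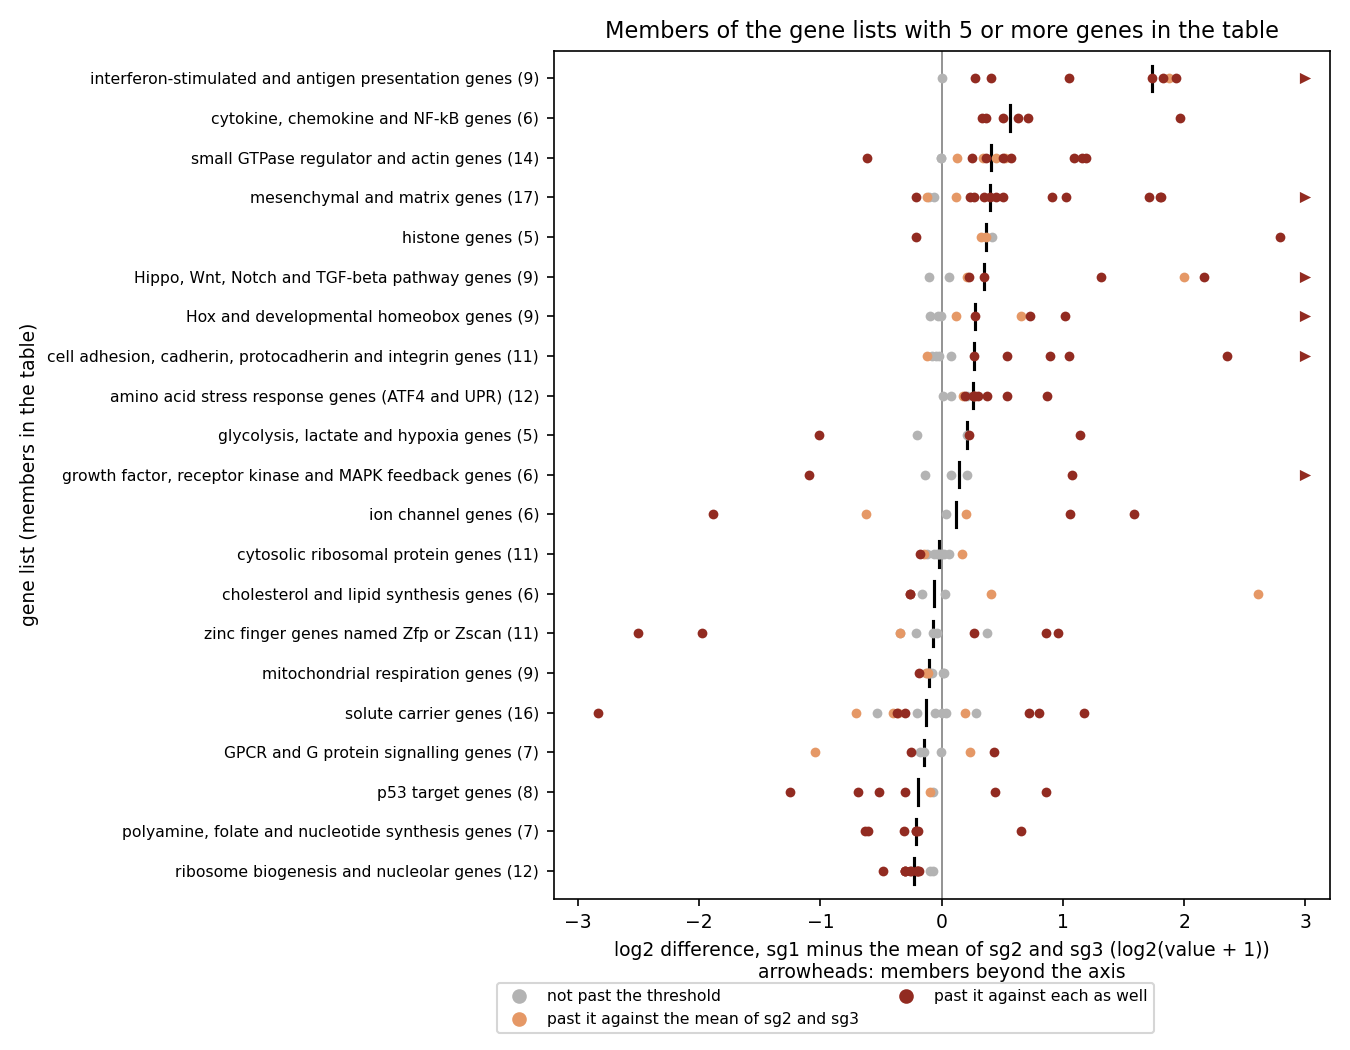
Log2 difference of sg1 from the mean of sg2 and sg3 (x axis) for each member of the gene lists with 5 or more genes in the table (y axis), coloured by the limma call, with a black bar at the list's median. Arrowheads mark members beyond the axis. Interferon-stimulated genes lie highest (median 1.73) and nucleolar genes lowest (median -0.23).

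Targets of p53 split in both directions. Of 8 genes, 5 were lower and 2 higher against the mean, and 4 to 6 lower and 2 higher under the other scalings. Eda2r, a receptor of ectodysplasin A2, had values of 152, 126 and 113 in sg1, 343, 313 and 348 in sg2 and 292, 281 and 286 in sg3. The control lay lower still (96.5 ± 10.1), so sg2 and sg3 were the lines away from it. The pattern was similar for Zmat3, an RNA-binding factor (-0.51, SE 0.06), and Ccng1, cyclin G1 (-0.30, SE 0.06), with control means of 1218 and 3101 beside 1198 and 3292 in sg1. Gadd45b (0.86, SE 0.15) and Ephx1 (0.44, SE 0.07) were higher in sg1, and Mdm2, the ligase that degrades p53, differed by -0.10 (SE 0.04).

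Of the 4 oxidative stress genes in the table, 2 were higher and 2 lower. Aldh3a1, an aldehyde dehydrogenase, had values of 239, 223 and 233 in sg1, 38.7, 28.9 and 28.8 in sg2 and 55.9, 35.6 and 52.9 in sg3, a difference of 2.55 (SE 0.16). Akr1c13, which belongs to a family of close paralogs, was higher by 1.38 (SE 0.20). Tkt, the transketolase of the pentose phosphate pathway (-0.37, SE 0.05), and Sod2, the mitochondrial superoxide dismutase (-0.31, SE 0.05), were lower.

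Genes of sugar and lipid metabolism also diverged. Epas1, the hypoxia-inducible factor HIF-2 alpha, had values of 752, 734 and 778 in sg1, 350.0, 335 and 303 in sg2 and 345, 361 and 366 in sg3. Pfkfb4, a bifunctional regulator of glycolysis, had values of 132, 107 and 106 in sg1, 229.8, 217 and 221 in sg2 and 243, 253 and 223 in sg3. Both genes had a control near sg2 and sg3, and they moved apart, by 1.14 (SE 0.07) and -1.01 (SE 0.10). Slc16a3, a lactate transporter far higher in the control (442) than in any edited line, did not pass between sg1 and the others (-0.21, SE 0.23, limma adjusted p = 0.436). Fasn, fatty acid synthase, and Acly, which supplies its acetyl-CoA, each differed by -0.26 (SE 0.06). Lpl, lipoprotein lipase, passed against the mean (2.61) through sg3 alone (22.1, 10.6 and 15.5), with sg1 at 728, 644 and 717 and sg2 at 883, 705 and 798.

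Receptors and ligands of signalling pathways added larger differences. In the Hippo, Wnt, Notch and TGF-beta list, 7 of 9 were higher and 0 lower, 5 of them against each line, and under the other scalings 5 to 7 were higher and 0 or 1 lower. Notch4, a Notch receptor, had values of 453, 458 and 434 in sg1, 137, 168 and 135 in sg2 and 85, 59.7 and 60.2 in sg3. Bmp7, a ligand of the TGF-beta superfamily, had values of 705, 701 and 782 in sg1, 228, 236 and 229 in sg2 and 354, 409 and 348 in sg3. Neither overlapped, with differences of 2.16 (SE 0.12) and 1.32 (SE 0.07). Tgfbr2, the type II TGF-beta receptor, was higher by 0.35 (SE 0.05). Fzd7 was at the floor in sg3 and similar in sg1 (30.8, 31 and 27.6) and sg2 (28.2, 21.9 and 25.3).

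Of the 6 growth factor and receptor kinase genes, 2 were higher and 1 lower. Ephb2, an ephrin receptor, had values of 727, 756 and 735 in sg1, 6.27, 4.98 and 7.84 in sg2 and 406, 486 and 464 in sg3. Only sg2 was close to silent, and the difference of 3.69 (SE 0.12) averages 6.67 from sg2 and 0.71 from sg3. Btc, the EGF receptor ligand betacellulin, was higher by 1.07 (SE 0.15). Ddr2, a collagen receptor kinase, had values of 2217, 1996 and 2097 in sg1, 4114, 4250 and 4207 in sg2 and 5190, 4463 and 4759 in sg3. The control, at 1695 ± 31.2, lay beyond sg1, so sg2 and sg3 were raised above both. Met, the receptor of hepatocyte growth factor, did not pass (0.08, SE 0.04). Among GPCR and G protein genes Arrb1, the scaffold beta-arrestin 1, was higher by 0.43 (SE 0.05). Gngt2 was lower by 1.04 on the log2 scale (SE 0.24), through sg2 alone.

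Among 9 Hox, Sox, Fox and other developmental factors, 6 were higher against the mean and 0 lower, 4 of them against each line, Hoxa7 and Sox9 included. Under the other scalings 4 or 5 were higher and 0 to 2 lower. Hoxb3 passed through sg2 alone and overlaps its antisense transcript, and Foxm1, a driver of mitosis, differed by 0.12 (SE 0.05), a sign that turned to -0.021 when totals left out the most abundant feature. The 11 genes named Zfp or Zscan had 3 higher and 3 lower, and 2 or 3 higher and 3 to 5 lower under the other scalings. Zfp518b had values of 80.8, 59.2 and 66.3 in sg1, 511, 455 and 492 in sg2 and 352, 278 and 321 in sg3, and Zfp651 had 264, 249 and 255 in sg1, 158, 156 and 131 in sg2 and 125, 115 and 109 in sg3. They stood on opposite sides with no overlap. Setbp1, a partner of the SET protein, had values of 11.7, 4.85 and 13.3 in sg1, 19.9, 23.9 and 31.4 in sg2 and 72.2, 82.8 and 85.8 in sg3, below a control of 175 ± 35.2.

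Genes named Slc, mostly solute carriers, had 4 of 16 higher and 6 lower against the mean, and 3 or 4 higher and 6 to 8 lower under the other scalings. They were matched by name, and Slc9a3r2 (-0.70, SE 0.19) among the lower ones encodes a scaffold protein and not a carrier. Slc6a8, the creatine transporter, was higher by 0.80 (SE 0.07) and Slc45a3 by 1.17 (SE 0.23). Slc19a1, the reduced folate carrier, was lower (-0.37, SE 0.07), as was Slc25a5, an ADP/ATP carrier (-0.30, SE 0.05). Of 6 genes on the ion channel list 3 were higher and 2 lower, and 2 or 3 in each direction passed under the other scalings. Kcnab3 was higher by 1.59 (SE 0.22), opposite to its relative Kcnab2, with values of 93.6, 85.3 and 72.9 in sg1, 26.1, 27.9 and 34.9 in sg2 and 16.3, 31.8 and 30.1 in sg3. P2ry12 on this list is a G protein-coupled receptor of ADP (1.06, SE 0.23).

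Histone genes had 3 of 5 members higher and 1 lower. Hist1h1a, a linker histone of dividing cells, had values of 399, 433 and 431 in sg1, 19.9, 11.9 and 23.5 in sg2 and 191, 233 and 169 in sg3, all below the control at 968 ± 30.1. Its difference was 2.79 (SE 0.17), with sg2 farthest away. H2afy, the histone variant macroH2A1, was lower by 0.21 on the log2 scale (SE 0.04). H2afy2 did not pass (0.41, SE 0.36), and its sign rested on sg1 replicate 2, without which it was -0.020. The cell cycle genes Rbl1 (0.16, SE 0.06) and Prc1 (0.14, SE 0.05) passed against the mean and not against each line. Neither they nor Foxm1 passed under any of the 5 other scalings, and Prc1 was at -0.00094 when totals left out the most abundant feature.

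Noncoding and predicted transcripts had 11 of 52 higher and 9 lower against the mean, and 7 and 4 against each line. Under the other scalings 9 or 10 were higher and 12 to 19 lower. Of the 445 genes that differed from each line, 431 were protein coding, as were 813 of all 878. Gm2115 had values of 419, 445 and 423 in sg1, 124, 131 and 86.3 in sg2 and 134, 137 and 124 in sg3, a difference of 1.81 (SE 0.12). Gm14412 and Gm14418 are neighbours on chromosome 2 that moved apart, by 1.53 (SE 0.26) and -1.32 (SE 0.14). Reads of these related predicted genes may be shared between them. Airn, an imprinted antisense transcript, did not pass (-0.26, SE 0.18).

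Some genes of the table lay side by side in the genome. In the order of protein-coding genes along the annotation, 54 pairs of neighbours were both in the table outside chromosome 15, where 50.7% of single genes differed from each line. In 16 of these pairs both genes did so, 12 in the same direction and 4 in opposite ones, and these numbers were not tested against chance. Tmem176b and Tmem176a, membrane proteins of immune cells, were higher by 2.42 (SE 0.28) and 2.16 (SE 0.25). Ccdc116 and Ydjc were lower, at -1.40 and -0.75. In contrast, Slc19a1 fell beside Col18a1, which rose, and Chd5 rose by 0.50 beside Kcnab2. By chromosome, the median difference ran highest on chromosomes 14 (0.27, 33 genes), 9 (0.27, 54 genes) and X (0.24, 26 genes), and chromosome 11 had -0.09 over 82 genes.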

How the data were processed

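RNA from 6DT1 dishes was made into stranded total RNA libraries. Per the labels, STAR 2.7.8a, Partek and DESeq2 were used; the mouse build, annotation and counting method are not given in the sources used here. The deposited table holds a normalized signal per gene: estimated counts that the authors divided by 1 size factor per library, read here from the values. Under a value of 100, between 79.1% and 83.9% of the values lay within 0.05 reads of a multiple of the library's step, so whole reads were not recovered and no count model was used. The steps gave 1918392 to 2780675 estimated reads in these genes per library. No replicate pair was a duplicate (chi-square over degrees of freedom 13.4 to 95.9). No column lacked a sample.

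The limma package (version 3.58.1, R 4.3.3) was run on log2(value + 1) of the 9 edited libraries, with an intensity trend and robust empirical Bayes, without a filter. The contrasts were sg1 minus the mean of sg2 and sg3, and sg1 minus each. All 982 genes entered the Benjamini-Hochberg adjustment of the two-sided p-values, and the threshold was 0.05. The script was tested on simulated data. Symbols and chromosomes came from GENCODE M21, and promoter windows of 250 bases before to 50 after the start from RefSeq (GRCm38.p6). Since the authors' build is not given, no gene coordinates are printed beyond those of RefSeq sequences.

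Largest rises and falls are the 15 each, among genes with a symbol that passed against the mean and against each line, with separated libraries and a highest line mean of at least 50, that ranked first by the smaller of both differences. Up to 4 members per list with the largest differences were named by rule, and others after their values were seen. One of the 15 falls and 1 list member so chosen are not reported here. The members, lists and rules were chosen with earlier results of these data known. A line was at the floor where each library had at most 3 estimated reads. Alternatives covered pseudocounts of 0.5 and 8, a mean of at least 50, 4 other scalings, all 12 libraries, a replicate block, each library left out, a test against a 1.2-fold change, sg2 and sg3 as 1 group, a constant spread and removal of length and GC trends. Scaling over genes outside chromosome 15 was added after seeing the data.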

Additional observations from a re-analysis of the deposited data

How the results depend on the processing

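The number of genes past the threshold against the mean of sg2 and sg3 (605) was 556 to 668 under the other pseudocounts, filters, scalings, block, spread and trend settings, 482 with sg2 and sg3 as 1 group, and 554 to 612 with each library left out in turn. Leaving out a library gave 333 to 353 genes higher, 221 to 263 lower, 396 to 449 that differed from each line, and 30 to 30 of the 30 largest rises and falls. A test against a 1.2-fold change asks for more and gave 311 genes, 224 higher and 87 lower, with 206 against each line. With totals that leave out the most abundant feature Prc1 was at -0.00094 and Foxm1 at -0.021. H2afy2 was at -0.020 without sg1 replicate 2 and at 0.73 without sg1 replicate 1. Of the other values for the 118 genes named by rule, 2565 kept their direction and side of the threshold, 111 no longer passed and 16 newly passed. Genes named after their values were seen lay outside this tally, and some small differences changed sign. With median-of-ratios scaling, negative differences rose from 0 to 2 of 12 stress response genes and from 0 to 1 of 9 interferon-stimulated genes. With a mean of at least 50, 28 of the 30 genes could be tested and passed. Replicate numbers were not taken as pairs, since not every pair met the limit: after each group mean was subtracted, the libraries' residuals correlated above 0.1 in 5 of 9 pairs of the same number (-0.05 to 0.32, with all 3 pairs of replicate 3 above it) and in 2 of 18 others. Some of the libraries that share a number thus deviated together, but not every library correlated best with its own number. With the replicate number as a block, 640 genes passed, 367 higher and 273 lower, 482 of them against each line. Size factors of the whole libraries cannot be checked on a table without a set of unchanged genes. Genes with a line at or under 3 estimated reads per library, such as Ninl, Fzd7 and Rsad2, are limited to bounds there.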

Other observations

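Genes outside the lists added further differences from sg2 and sg3, and those below were chosen after their values were seen. Syk, a tyrosine kinase of antigen receptor signalling, averaged 467.9 in sg1 against 52.8 (sg2) and 154 (sg3), a difference of 2.36 (SE 0.11, limma adjusted p = 1.59e-11). Ptpn22, a phosphatase that dampens the same signalling, was higher by 1.76 (SE 0.11), and Blnk, an adaptor downstream of Syk, averaged 355 in sg1 against 77.3 (sg2) and 204 (sg3). The bacterial sensor Nod1 was higher by 1.79 (SE 0.17), the interferon-inducible gene Ifi205 by 1.67 (SE 0.25) and Bst1, a cell surface enzyme, by 2.06 (SE 0.08). Gimap9, of a GTPase family of lymphocytes with close paralogs, averaged 122 in sg1 against 56.8 (sg2) and 15.4 (sg3). For each of these the sg1 libraries lay above all other edited libraries.

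Other genes with large differences had varied roles. The metalloprotease Adamts7 was higher in sg1 by 1.30 (SE 0.08) and its protease-lacking relative Adamtsl3 by 1.66 (SE 0.09). Aqp1, a water channel, averaged 1954 in sg1 against 365 (sg2) and 775 (sg3), a difference of 1.88 (SE 0.08). Chst2, a sulfotransferase of glycans, was higher by 2.64 (SE 0.15) and Msln, the surface protein mesothelin, by 1.24 (SE 0.06). Rgma, a co-receptor of BMP ligands, averaged 207 in sg1 against 71.5 (sg2) and 8.90 (sg3).

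Among genes that were lower, Prodh, which starts proline breakdown, differed by -1.47 (SE 0.10), Ckb, the brain creatine kinase, by -1.05 (SE 0.10), Ak3, a mitochondrial adenylate kinase, by -1.10 (SE 0.07) and Gyg, which primes glycogen, by -1.14 (SE 0.09). Cnp, a phosphodiesterase of myelin-forming cells, differed by -1.27 (SE 0.11). Another adenylate kinase gene, Ak1, was higher by 1.12 (SE 0.06).

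Of the 10 features without a position in the annotation, 3 passed the threshold. ENSMUSG00000118406 was lower and averaged 45.8 in sg1 against 125 (sg2) and 101 (sg3) (-1.26, SE 0.16). ENSMUSG00000118667 was higher, with means of 2979, 2161 and 2116 (0.48, SE 0.06). The most abundant feature of the table did not pass (-0.20, SE 0.18, limma adjusted p = 0.326).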
